A study of Rattus norvegicus with 20 samples.

Results

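The regions described here are the CpG islands of the 7 megabases of the rat autosomes in which islands lie closest together. A region is a run of neighbouring array probes, each starting at most 500 bases after the one before it, and a megabase was taken where 40 or more runs of at least 3 probes started in it. Within these megabases the runs of 3 to 14 probes were kept, which gave 352 regions of 13650 runs of 3 or more probes on the array. They were set against 12211 other autosomal runs of the same size range, of which 12123 kept at least 3 probes with measurable input DNA; all 352 dense regions did. A further megabase of chromosome 7 and an interval of chromosome 20 were left out of both sets.

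The tissues were 16 mammary carcinomas and 4 normal mammary glands of female rats, the F1 offspring of a Sprague-Dawley by Copenhagen cross. By the title of the series the carcinomas were radiation-induced. The labels give every sample the same alternative, no treatment or 4 Gy of 137Cs gamma rays to the whole body of 7-week-old rats at a rate of 0.5 Gy/min, without saying which normal glands, if any, were irradiated. A difference between the groups can therefore also hold an effect of irradiation. The sources used here give no age at which tissue was taken. Each tissue was whole tissue on 1 array: DNA captured by a protein with a methyl-CpG-binding domain was labelled with Cy5 and its unselected input DNA with Cy3. The labels and the scanner files carry different tumour codes for carcinomas 7 and 8, so which tumours these are is uncertain.

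CpG islands are stretches rich in the dinucleotide CpG that often overlap gene promoters. Most are free of methylation in normal mammalian tissue, while a minority, often within genes or between them, carry methyl groups on nearly all their CpGs. In many tumours some unmethylated islands become methylated while methylation is lost elsewhere in the genome. Megabases with many islands are as a rule rich in genes and in GC. The files give positions in build rn4 and no gene names, so regions are named by position.

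Values are log2 ratios of captured to input signal with the median of the array removed, so 0 is the level of the median probe of that array. Each region was also given a linear position from its unlogged ratio, which is 0 at the most common ratio of its array and 1 at the most common ratio among the highest 15% of its regions. It is a rescaled capture ratio and not the fraction of methylated CpGs. The high mode stood between 1.99 and 3.61 on the log2 scale on the carcinoma arrays and between 3.91 and 5.83 on the normal arrays, with no overlap. Both scales are therefore given side by side.

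The dense megabases are named A to G here. Megabase A lies on chromosome 1 from 78000001 to 79000000 with 43 runs, B on chromosome 1 from 95000001 to 96000000 with 50, C and D on chromosome 16 from 18000001 to 19000000 with 48 and from 19000001 to 20000000 with 56. Megabases E and F are neighbours on chromosome 7, from 10000001 to 11000000 with 76 runs and from 11000001 to 12000000 with 48, and G lies on chromosome 7 from 114000001 to 115000000 with 47. The median autosomal megabase that held any such run had 5. Runs started a median of 8.45 kb apart in megabase E, the closest spacing of the 7, and 15.6 kb apart in megabase B, the widest. Just inside the threshold stood megabase A, in which 13 of 40 regions had a mean linear position over 0.5 and the median log2 difference of carcinomas from normal glands was -0.28. Just outside it stood the megabase on chromosome 9 from 74000001 to 75000000 with 38 runs, with 11 of 36 such regions and a median difference of -0.13.

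Regions over 0.5 in linear position made up a larger share in the dense megabases than in the other autosomal regions on all 20 arrays. The CpG content of dense and other regions was not compared. The share of dense regions with a linear position over 0.5 was 20.5% at the lowest, 25.99% at the median and 29.8% at the highest over the carcinomas, against 20.7%, 21.6%, 19.9% and 23.6% in normal glands 1 to 4. In the other autosomal regions this share ran from 11.3% to 23.6% over the carcinomas and from 10.0% to 11.3% over the normal glands. In those other regions every carcinoma stood above every normal gland, but carcinoma 3, at 11.268%, only just above normal gland 2, at 11.260%. In the dense regions 3 carcinomas stood below the highest normal gland, so the groups overlapped. The share in the dense regions was between 1.22 and 1.88 times that in the other regions in carcinomas, and between 1.92 and 2.18 times in normal glands. The members were chosen with earlier results of these data known, so these shares are descriptions without a test.

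**Figure D1:**
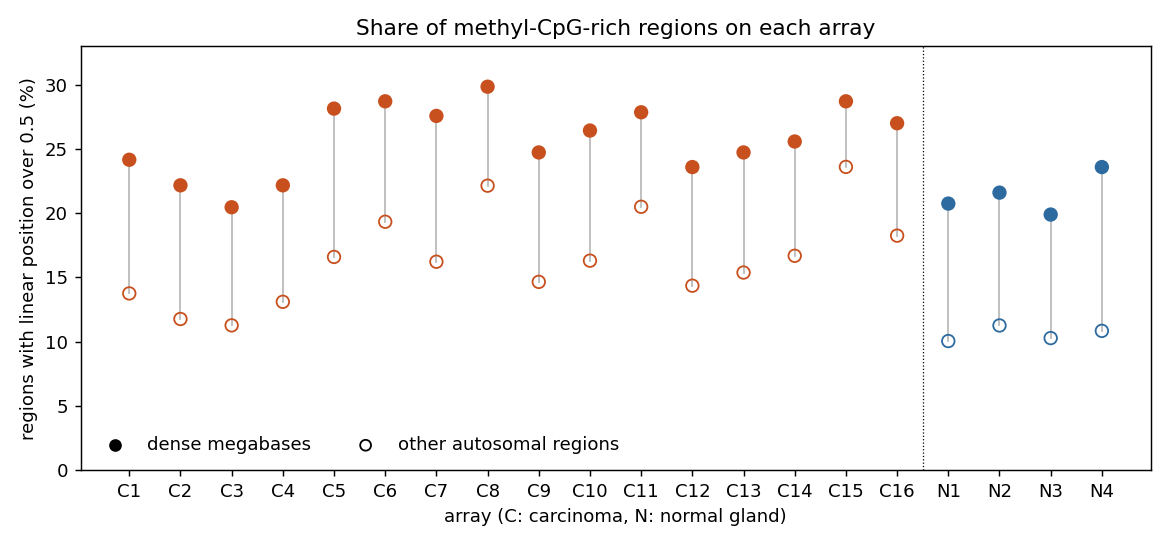
Share of regions with a linear position over 0.5 (vertical axis, percent) on each array (horizontal axis), with carcinomas in orange on the left and normal glands in blue on the right, for dense megabases (filled) and other autosomal regions (open). The filled point lies above the open point on all 20 arrays, and the gap is narrowest in carcinoma 15, at 28.7% against 23.6%.

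The share climbed with the number of runs in the megabase over the whole autosomal range. In megabases with 1 to 4 runs it averaged 14.8% over carcinomas and 7.93% over normal glands. With 5 to 9 runs it was 15.1% in carcinomas and 9.41% in normal glands, with 10 to 19 runs 17.2% and 11.7%, and with 20 to 39 runs 18.9% and 13.0% in the same order of groups. In the dense megabases it was 25.7% in carcinomas and 21.4% in normal glands. Run size was alike, with a median of 6 probes in both sets and a median length of 556 bases in dense and 573 bases in other regions. Among runs of 3 to 5 probes, 28.05% of 164 dense and 15.8% of 5994 other regions had a mean linear position over 0.5, and among runs of 10 to 14 probes 21.7% of 46 and 8.01% of 1349 did.

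**Figure D2:**
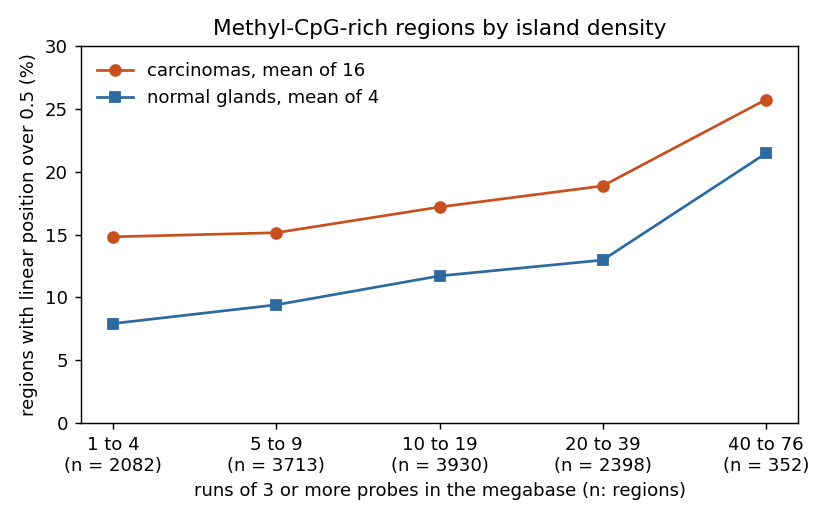
Share of autosomal regions of 3 to 14 probes with a linear position over 0.5 (vertical axis, percent, mean over the arrays of a group) by the number of runs in the megabase (horizontal axis). Carcinomas lie above normal glands in all 5 classes, and both lines are highest in the densest class, at 25.7% and 21.4%.

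In the dense megabases, regions of high linear position stood interspersed among regions of low position. Of the 352 regions, 232 had a mean linear position under 0.2 over all arrays, 33 lay between 0.2 and 0.5, and 87 were over 0.5. The other autosomal regions had 9073, 1376 and 1674 in these classes. After a dense region over 0.5, the next region of the megabase was also over 0.5 in 24.1% of cases, and after any other dense region in 24.8%. In the other autosomal regions these shares were 24.1% and 12.9%. Neighbours lay a median of 10.8 kb apart in the dense set and 43.3 kb apart in the other set. In the normal glands the median step in log2 ratio from a region to its neighbour was 1.52 in the dense set and 0.84 in the other set. The 87 regions over 0.5 fell into 66 unbroken stretches, 49 of which were single regions, and the longest held 3. Genes are not named in the files, so whether a step falls between a promoter and the body of a gene was not examined.

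**Figure D3:**
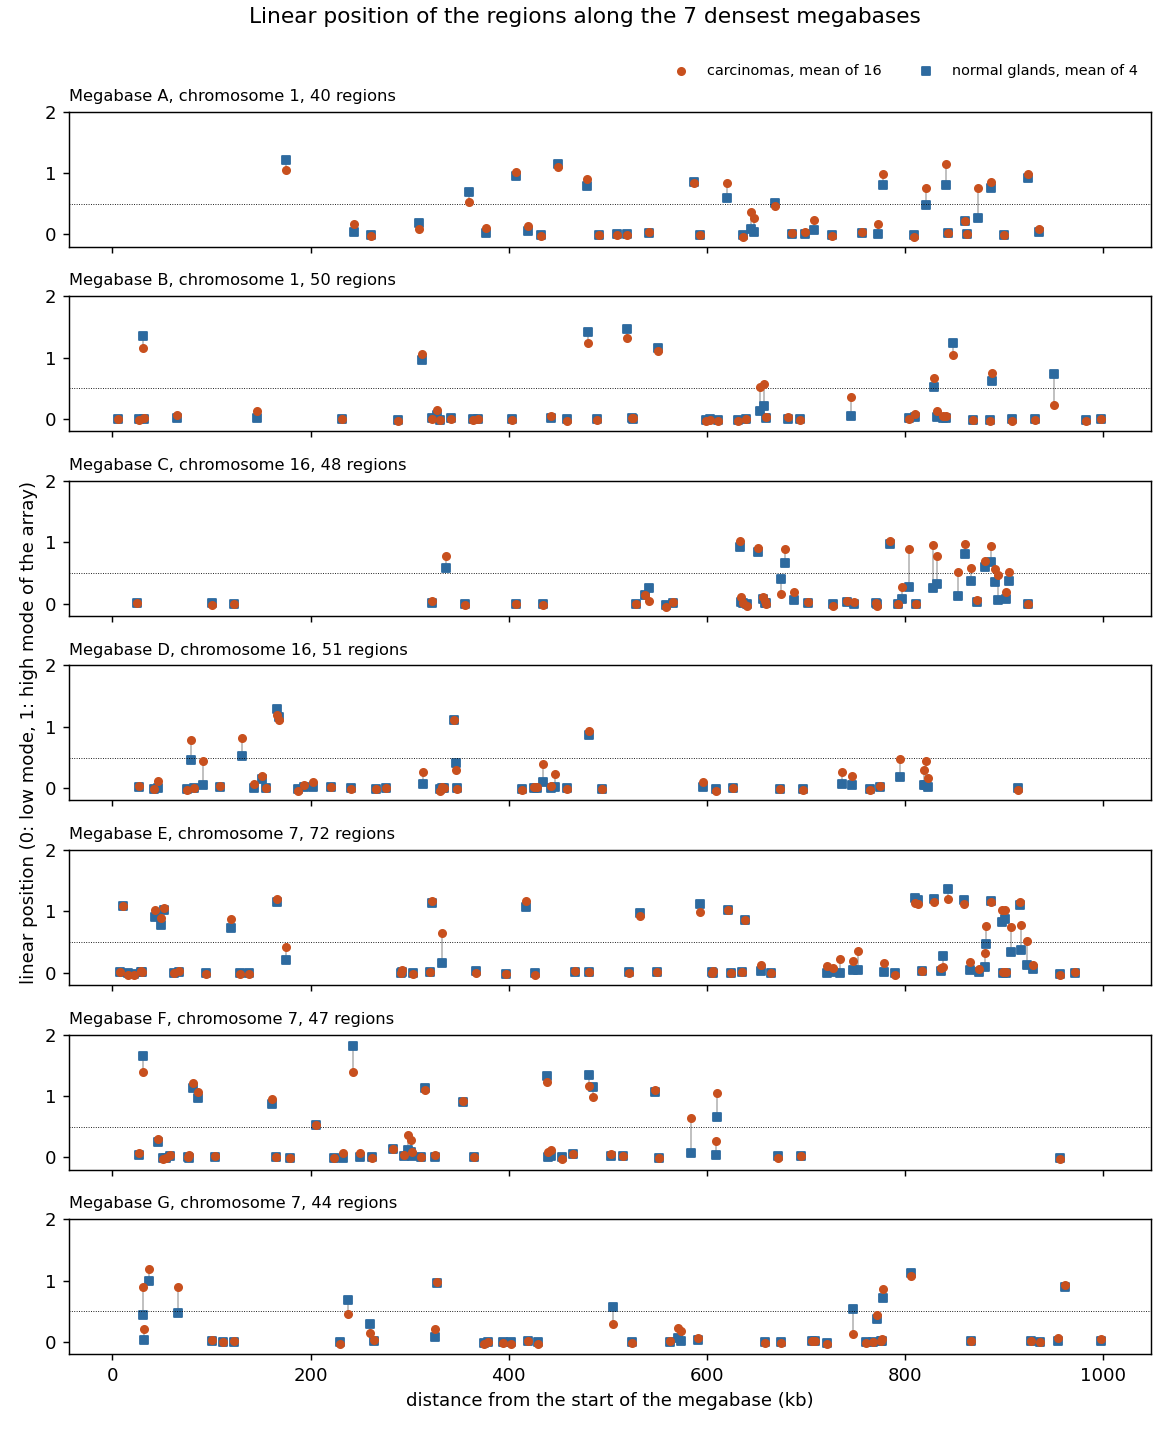
Mean linear position of each region (vertical axis, no unit) against its distance from the start of the megabase (horizontal axis, kb) in megabases A to G, for carcinomas (orange circles) and normal glands (blue squares), joined by grey lines. Regions near 1 and regions near 0 are interspersed along the 7 megabases.

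The comparison of carcinomas with normal glands asked which dense regions differed in captured methylated DNA. With limma and Benjamini-Hochberg adjustment over all 13554 regions tested, 130 dense regions were lower and 18 were higher in carcinomas at an adjusted p under 0.05, while 204 did not pass. The count of higher regions was 29 without carcinoma 8 and 10 without normal gland 1. Over all regions tested, 23.7% were lower and 11.6% were higher, against 36.9% and 5.11% of the dense regions. The median difference was -0.17 in the dense regions, 0.04 in the other autosomal regions and 0.02 over all regions tested. In 90 dense regions (25.6%) every carcinoma lay below every normal gland, and in 2 (0.568%) above, where over all regions tested these shares were 15.6% and 1.74%. In whole tissue, methylation in fewer cells and less methylation per cell cannot be told apart. Lower calls made up 87.8% of the calls of the dense set in log2 ratio, against 67.1% over all regions tested. After loess within each array they made up 44.3%, with 35 lower and 44 higher dense regions, against 40.1% over all regions. In that setting 12.5% of the dense regions were higher and 9.94% lower, against 10.9% and 7.28% of all regions, so the share of higher regions was no longer below the background. In linear position lower calls made up 33.3% in the dense set and 19.8% over all regions.

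On linear position the same test called 60 dense regions higher and 30 lower. Over all regions tested, 17.2% were higher and 4.23% were lower, so the 17.05% higher in the dense set was near the background and the 8.52% lower was above it. The median difference in linear position was 0.00657 in dense and 0.0129 in other autosomal regions. Both scales called 20 dense regions lower (5.68%) and 5 higher (1.42%), against 1.97% and 3.65% of all regions. A further 23 (6.53%) fell in log2 ratio while they rose in linear position, against 3.92% of all regions.

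The calls in log2 ratio were unevenly spread over the levels. Of the 87 dense regions with a mean linear position over 0.5, 79 (90.8%) were lower and 0 were higher in log2 ratio, and the median of their differences was -1.87. The 1674 other regions of that level had 82.2% lower and 1.31% higher, with a median of -1.84. The high mode given above also stood lower on every carcinoma array than on every normal array. Its part in these falls was not tested. On linear position 28 of the 87 dense regions (32.2%) were higher and 12 (13.8%) lower, against 37.1% and 8.66% of the 1674 others. Between 0.2 and 0.5, 11 of 33 dense regions were lower and 1 was higher, and their median difference was -0.22. The 1376 other regions of that level had 13.6% lower and 16.4% higher, with a median of 0.27. On linear position 4 of these 33 dense regions (12.1%) and 10 of the 1376 others (0.727%) were lower, while 48.5% and 52.9% were higher. Under 0.2, 17.2% of 232 dense and 11.1% of 9073 other regions were lower in log2 ratio, and 7.33% and 13.7% were higher. Whether the sets differ at matched level was not tested.

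**Figure D4:**
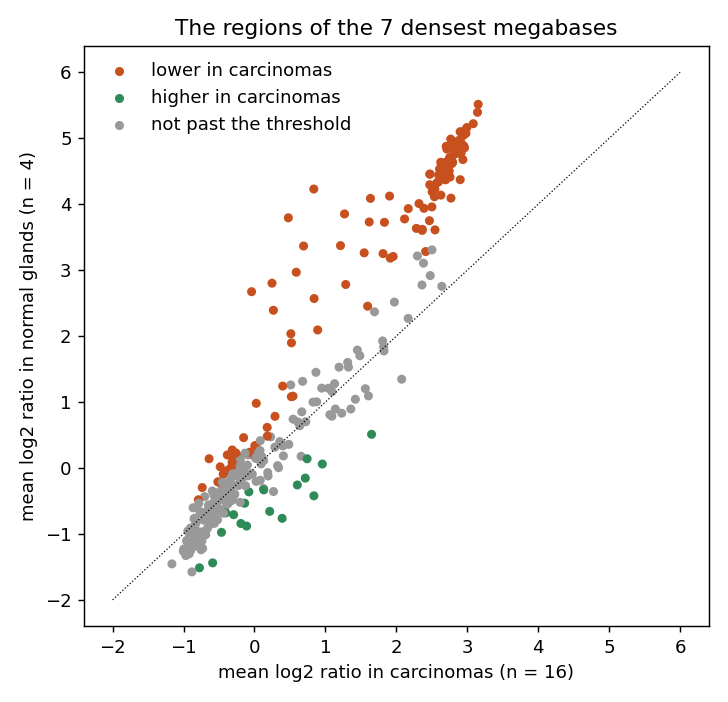
Mean log2 ratio of each of the 352 regions in carcinomas (horizontal axis, n = 16) and in normal glands (vertical axis, n = 4), coloured by the limma call, with the line of equal values dotted. The group at the upper right lies above the line and reaches 5.51 in normal glands, and several orange points near the middle left are high in normal glands and near 0 in carcinomas.

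The dense regions with the highest ratios in normal glands stayed at the top of the array range in every carcinoma. The highest was on chromosome 7 from 11242587 to 11242918 in megabase F, with 3 probes. Its log2 ratio was 2.24 at the lowest, 3.24 at the median and 4.10 at the highest in carcinomas, against 7.00, 4.55, 5.32 and 5.18 in normal glands 1 to 4. The difference was -2.36 (SE 0.34, limma adjusted p = 1.95e-05), all 16 carcinomas lay below every normal gland, and its linear position averaged 1.40 in carcinomas and 1.82 in normal glands (limma adjusted p = 0.00117).

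The next 4 were on chromosome 7 from 11030435 to 11030797, on chromosome 1 from 95518844 to 95519286, on chromosome 1 from 95479541 to 95480490 and on chromosome 7 from 10841865 to 10843567. Their differences lay between -2.25 and -2.14 in log2 ratio, near the median fall of -1.87 in the dense regions of high level. In linear position all 5 were over 0.5 on all 20 arrays and lower in carcinomas (limma adjusted p from 0.000994 to 0.0247). The 5 were picked for high ratios in these same normal glands, which by itself favours lower values in carcinomas. The p-values of all 5 are therefore descriptions and not a test of a loss. With quantile normalization none of the 5 log2 differences passed (limma adjusted p from 0.0618 to 0.566). After loess within each array the sign of all 5 differences turned, to values between 0.19 and 0.33, and that of the region from 95518844 passed the test there (limma adjusted p = 0.00979). In each of the 5 the highest carcinoma was carcinoma 12 and the highest normal gland was normal gland 1. Of all dense regions, 59 (16.8%) were over 0.5 on every array, against 8.22% of the other autosomal regions, and 194 (55.1%) were under 0.2 on every array, against 62.0%.

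The 6 largest falls were in regions whose mean linear position lay between 0.0485 and 0.297 in carcinomas, against 0.253 to 0.741 in normal glands. The largest fall was on chromosome 1 from 95950255 to 95950677 in megabase B. Its 5 probes gave -0.09 at the lowest, 0.66 at the median and 2.43 at the highest in carcinomas, against 5.16, 3.28, 4.04 and 4.44 in normal glands 1 to 4. The groups did not overlap, although the carcinomas spread widely. The difference was -3.39 (SE 0.40, limma adjusted p = 6.27e-06). All 5 probes were lower, with differences of -4.05 to -2.38 and mean ratios of 0.60 to 1.31 per probe in carcinomas and 3.68 to 4.80 in normal glands. Its linear position averaged 0.228 in carcinomas and 0.741 in normal glands (limma adjusted p = 0.00245), and carcinoma 5 was the highest at 0.588. After loess the log2 difference was -0.38 and did not pass (limma adjusted p = 0.408).

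On chromosome 7 from 114746998 to 114747515 in megabase G, a region of 6 probes had log2 ratios of 0.03 at the lowest, 0.28 at the median and 1.39 at the highest in carcinomas, against 4.89, 2.83, 3.47 and 3.98 in normal glands 1 to 4. The lowest normal gland thus stood above the highest carcinoma by more than the whole carcinoma range. The difference was -3.32 (SE 0.28, limma adjusted p = 1.43e-07), and every probe was lower, with differences of -3.88 to -2.44. The fit assumed a common spread, while the SD was 0.44 in carcinomas and 0.87 in normal glands. This SE and p-value may therefore be too small. Its linear position averaged 0.137 in carcinomas and 0.538 in normal glands (limma adjusted p = 0.000366).

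Megabase C held the third and the fourth largest fall. The region on chromosome 16 from 18541589 to 18542185 averaged -0.04 ± 0.40 (SD, n = 16) in carcinomas and 2.67 ± 0.85 (SD, n = 4) in normal glands, a difference of -2.71 (limma adjusted p = 5.02e-07). In normal glands its linear position averaged 0.253, from 0.126 to 0.478, and it averaged 0.0485 in carcinomas. The region on chromosome 16 from 18673885 to 18674550, with 8 probes, averaged 0.69 ± 0.27 (SD, n = 16) in carcinomas and 3.37 ± 0.78 (SD, n = 4) in normal glands. Its difference of -2.67 had a limma adjusted p of 8.04e-08, and the carcinomas differed little among themselves, from 0.36 to 1.38.

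The fifth, on chromosome 7 from 114504561 to 114505459 in megabase G, fell to 1.27 ± 0.36 (SD, n = 16) in carcinomas, against 3.85 ± 0.90 (SD, n = 4) in normal glands, a difference of -2.58 (limma adjusted p = 8.20e-07). After loess that difference was -0.41 with a limma adjusted p of 0.0653. The sixth, on chromosome 7 from 10837856 to 10838071 in megabase E, fell to 0.25 ± 0.49 (SD, n = 16) in carcinomas, against 2.80 ± 0.66 (SD, n = 4) in normal glands, a difference of -2.55 (limma adjusted p = 1.83e-06). It lies shortly before the region from 10841865 named above, which was over 0.5 in linear position on every array. In each of the 6 regions every carcinoma lay below every normal gland and the fall also passed in linear position, with limma adjusted p-values from 0.000366 to 0.0324. In 5 of the 6 the highest carcinoma in log2 ratio was carcinoma 5. With captured signal alone in place of the ratio, the 6 differences lay between -3.58 and -2.50.

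**Figure D5:**
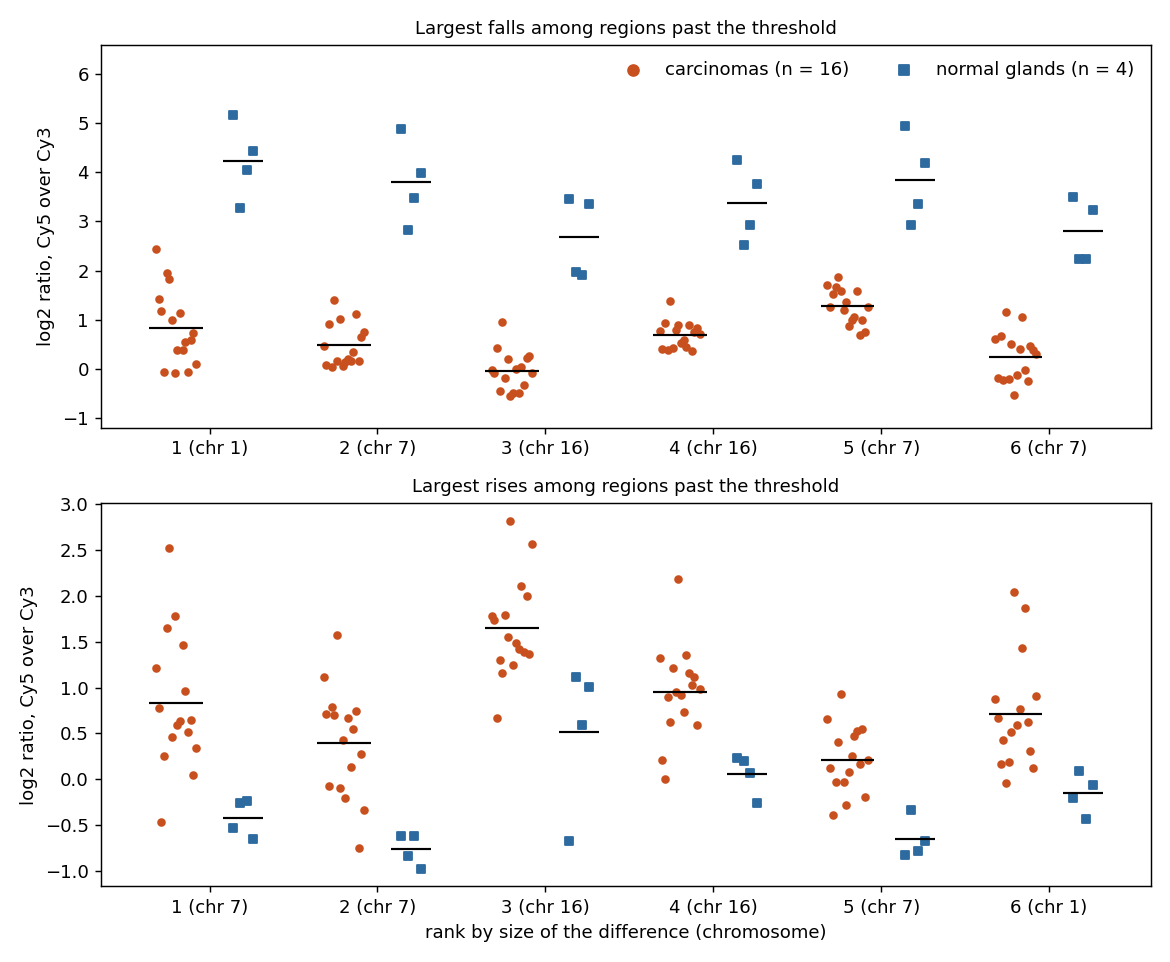
Log2 ratio (vertical axis) of each array in the 6 dense regions with the largest fall (upper panel) and the 6 with the largest rise (lower panel), in rank order (horizontal axis). Carcinomas are orange circles, normal glands are blue squares and black bars are group means. In the upper panel every circle lies below every square of its region, while in the lower panel circles and squares overlap in each region.

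The rises in dense megabases were smaller than the falls and began at the low end of the range. The largest was on chromosome 7 from 10734171 to 10734568 in megabase E, with 5 probes. Its log2 ratio was -0.47 at the lowest, 0.64 at the median and 2.52 at the highest in carcinomas, against -0.53, -0.26, -0.24 and -0.65 in normal glands 1 to 4. Carcinoma 3 was the only carcinoma inside the range of the normal glands, and 15 of 16 lay above it. The difference was 1.26 (SE 0.36, limma adjusted p = 0.00849), and all 5 probes rose, by 0.59 to 1.84. Its linear position was over 0.5 in carcinoma 6 alone, at 0.747, and did not pass on that scale (limma adjusted p = 0.104). Within scan day 2 the difference was 0.99 (limma adjusted p = 0.135) and within scan day 3 it was 1.47 (limma adjusted p = 0.123). Of the 6 largest rises, 4 did not pass within scan day 2 and 6 did not within scan day 3, while the 6 largest falls passed within both days.

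The second rise lay close before it, on chromosome 7 from 10720815 to 10721264, and averaged 0.39 ± 0.59 (SD, n = 16) in carcinomas and -0.76 ± 0.18 (SD, n = 4) in normal glands. Captured signal there was well above background at 41 of 80 carcinoma spots and 9 of 20 normal spots, so its normal level is poorly measured. Its difference of 1.15 (limma adjusted p = 0.00307) was 0.16 after normexp background correction (limma adjusted p = 0.172) and 0.46 with captured signal alone (limma adjusted p = 0.197). It did not pass in linear position (limma adjusted p = 0.0779).

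On chromosome 16 from 19091398 to 19092077 in megabase D, a region of 4 probes averaged 1.65 ± 0.54 (SD, n = 16) in carcinomas and 0.51 ± 0.82 (SD, n = 4) in normal glands, a rise of 1.14 (limma adjusted p = 0.00660). Normal gland 1 had -0.68 there and the other 3 had 0.59 to 1.12, and without normal gland 1 the rise was 0.74 (limma adjusted p = 0.0745). Its linear position was over 0.5 in 5 carcinomas and in 0 normal glands, and averaged 0.439 in carcinomas and 0.0488 in normal glands (limma adjusted p = 0.00652). The fourth rise, on chromosome 16 from 19445864 to 19446525, was 0.90 (limma adjusted p = 0.00684), and 3 of its 4 probes rose while the other fell by 0.83.

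The fifth, on chromosome 7 from 11232287 to 11232862, was 0.87 (limma adjusted p = 0.000726), and its normal spots were well above background at 12 of 20. The sixth, on chromosome 1 from 78772122 to 78772586, was also 0.87 (limma adjusted p = 0.0259). It did not pass in linear position (limma adjusted p = 0.0598). Its log2 difference no longer passed without normal gland 1, 3 or 4 (limma adjusted p = 0.0684, 0.0933 and 0.0511 in turn). After loess the second and the fifth rise did not pass (limma adjusted p = 0.235 and 0.489). In each of these 6 regions 14 or 15 of 16 carcinomas lay above every normal gland. The highest carcinoma was carcinoma 6 or carcinoma 8, in 3 regions each, and the lowest was carcinoma 3 in 4 of the 6.

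Gain from the low to the upper part of the range was counted among the 247 dense regions whose linear position was under 0.2 in every normal gland. Of these, 28 (11.3%) passed 0.5 in at least 1 carcinoma and 3 (1.21%) in 8 or more. Of all 13554 regions tested, 1.87% were so low in normal glands and passed 0.5 in 8 or more carcinomas. Over all 11028 regions tested that started so low, the shares were 15.8% and 2.3%. Per carcinoma the share of the 247 over 0.5 was 0% in carcinoma 2 and 6.88%, or 17 regions, in carcinoma 8, and it was below the share among other autosomal regions in 14 of 16 carcinomas. The widest gap was in carcinoma 15, at 5.26% against 10.8%. In carcinomas 3 and 7 the dense regions had the higher share.

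The 3 dense regions that passed 0.5 in 8 or more carcinomas were named after their values were seen. On chromosome 7 from 11583907 to 11584147 in megabase F the linear position averaged 0.644 in carcinomas and 0.0732 in normal glands and was over 0.5 in 12 of 16 carcinomas. On chromosome 1 from 95652997 to 95653372 it averaged 0.520 in carcinomas and 0.132 in normal glands, with 9 carcinomas over 0.5, and on chromosome 16 from 18853053 to 18853503 it averaged 0.511 and 0.116 in the same order, with 8. Each has 3 probes. None of the 3 passed in log2 ratio, where the differences were 0.73, -0.12 and 0.05.

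Loss was counted in the same way. Of 68 dense regions over 0.5 in every normal gland, 3 (4.41%) were under 0.2 in at least 1 carcinoma, where 3.16% of all 1456 such regions were. In 1 of the 68 (1.47%), the region from 95950255 described above, this held in 8 or more carcinomas. Among all 1456 such regions it held in 3. Those 3 are 0.0221% of all 13554 regions tested, a share on a wider base that cannot be set against the 1.47%. The dense count rests on 1 region. Carcinoma 3 had the most of the 68 under 0.5, with 7, and carcinoma 5 had 0.

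A stretch of megabase C was picked from the map of positions after it was seen, and no test is given for it. On chromosome 16 from 18783775 to 18905220, 17 regions stood within 121 kb. Of these 17, between 5 and 13 were over 0.5 in carcinomas, with a median of 10, against 4, 4, 3 and 7 in normal glands 1 to 4. By region, 7 of them were higher in linear position and 0 were lower, while 7 were lower and 0 higher in log2 ratio. Carcinoma 2 shared the lowest count, 5, with carcinoma 4, and both lay below normal gland 4. In megabase E, on chromosome 7 from 10880977 to 10929012, 11 regions within 48.04 kb had 5 to 8 over 0.5 in carcinomas and 4 or 5 in normal glands. This stretch was picked in the same way. In linear position 6 of its regions were higher and 0 lower, while in log2 ratio 7 were lower and 0 higher.

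The carcinomas differed most from each other in 3 regions that did not pass between the groups. On chromosome 7 from 114031715 to 114032031 the log2 ratio was -0.92 at the lowest, 0.50 at the median and 2.85 at the highest in carcinomas, against 2.06, 0.73, 0.06 and -0.29 in normal glands 1 to 4, so the normal glands spread almost as widely (SD 1.07 over carcinomas and 1.04 over normal glands). Captured signal was well above background at 42 of 64 carcinoma spots there. On chromosome 16 from 18893195 to 18894027, within the stretch of megabase C, carcinomas ran from 0.07 to 3.09 and normal glands from 0.15 to 2.87. On chromosome 1 from 78643486 to 78644581 they ran from 0.41 to 2.96 and from 1.10 to 2.49. In linear position the normal glands were under 0.2 in all 3 regions, while 2, 7 and 3 carcinomas in turn were over 0.5. Over all dense regions the median SD was 0.32 in carcinomas and 0.28 in normal glands.

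The 7 megabases were alike in direction on the log2 scale and unlike in size. The mean log2 ratio of their regions was lower in carcinomas in each, with no overlap between the groups in 6 of 7. Over the other autosomal regions this mean was also lower in carcinomas, at 0.31 ± 0.07 (SD, n = 16) against 0.45 ± 0.09 (SD, n = 4). There the carcinomas reached 0.41 and the lowest normal gland had 0.40. In megabase G it averaged 0.35 ± 0.10 (SD, n = 16) in carcinomas and 0.98 ± 0.23 (SD, n = 4) in normal glands. In megabase D, where carcinomas reached 0.47 and the lowest normal gland had 0.46, it averaged 0.34 ± 0.10 (SD, n = 16) and 0.53 ± 0.09 (SD, n = 4) in the same order. Regions with a mean linear position over 0.5 made up 34.7% of megabase E and 32.5% of A, but 11.8% of D and 16.0% of B. The share over 0.5 averaged 27.5% ± 5.17 (SD, n = 16) in carcinomas and 18.2% ± 4.62 (SD, n = 4) in normal glands in megabase C, the widest difference of the 7. In megabase G it was 17.8% ± 3.13 (SD, n = 16) in carcinomas and 17.6% ± 2.86 (SD, n = 4) in normal glands, a difference well inside the spread between arrays.

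Input DNA was compared by itself, since it carries the copy number of the tumour. With limma, 0 dense regions differed in input signal at an adjusted p under 0.05, and 0% of all 13554 regions tested were higher and 0% lower. At an unadjusted p under 0.05, 61 dense regions were higher and 16 lower (17.3% and 4.55%), against 5.95% and 11.9% of all regions. The median input difference was 0.01 in dense and -0.07 in other autosomal regions, and a higher input lowers the ratio. With captured signal alone, a setting added after the data were seen, 116 dense regions were lower and 12 higher (32.95% and 3.41%), against 21.9% and 4.76% of all regions, and the dense median minus that of the other regions was -0.15 in place of -0.22. Per megabase, mean input relative to the normal glands lay between -0.24 and 0.19 in single carcinomas and between -0.03 and 0.03 in normal glands. Carcinoma 8 had the highest input in megabases C, D, E, F and G. The part of input signal in the remaining difference was not tested.

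The arrays of both groups were scanned on shared days, which allowed the comparison within a day, except scan day 1, which held 2 carcinomas and no normal gland. Scan day 2 gave 93 lower and 6 higher dense regions, or 26.4% and 1.70%, where all regions tested had 16.7% and 4.49%. Scan day 3 gave 106 lower and 5 higher, or 30.1% and 1.42%, where all regions had 17.6% and 2.12%. No slide carried tissue of both groups, and the slide and the group cannot be told apart.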

How the data were processed

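The 20 two-colour Agilent arrays, 1 per tissue, were quantified by the authors (Agilent Feature Extraction 10.7.3.1, per the submitters' processing notes), with probe positions of build rn4 per the file headers. The deposited processed signals are intensities, background-subtracted and dye-normalized by the scanner software per the file headers, and the dyes were not swapped. The deposited scanner log10 ratio and the authors' deposited value table in log2, which equals it rescaled to within 7.94e-07 on every array and was not centred (column medians -0.48 to -0.08), served as a check and as an alternative. Input signal was well above background for 91.5% to 99.1% of probes per array and captured signal for 69.1% to 97.1%. The number of arrays, above all the 4 normal glands, limits the precision.

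Here, log2 of processed Cy5 over Cy3 was taken, 1565 control spots were left out, 187 values marked by the scanner software were set to missing, and a probe was kept if its input signal was well above background on 10 or more arrays (91599 of 93024). Each array was centred on its median and probes were averaged per run. Groups, from the sample titles, were compared in R 4.3.3 by limma 3.58.1, fitted over all 13554 runs with at least 3 kept probes, a call being an adjusted p under 0.05. The fit assumed a common spread in both groups. In each of the largest falls named, the SD was larger in normal glands, so those SEs and p-values may be too small. Simulated data on which the fit was run made the same assumption, so they could not check it. Nothing in the labels ties a sample to an animal, and the p-values cover only the spread between these samples, which may be technical.

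Regions named were the 6 largest rises and 6 largest falls past the threshold, the 5 highest in normal glands and the 3 with the largest SD over carcinomas. The members, lists and rules were chosen with earlier results of these data known. No sequence or gene name is given, since the reference tables at hand are of another build. In Python 3.11.15, pandas 2.3.3, numpy 2.4.6 and matplotlib 3.10.9 did the remaining work.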

Additional observations from a re-analysis of the deposited data

Results flagged for a closer look

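Among the 4 normal glands, 37 sets of values of the dense regions were examined for 1 gland standing apart, by Dixon's test, and 4 had one. The usual rate of about 1 set in 20 does not hold here. The sets overlap, and a set of shares with 3 equal values and 1 other is marked by construction. In megabase B, on chromosome 1 from 95000001, normal gland 1 had a mean log2 ratio of 0.79 where the other 3 had 0.51 to 0.52. The remaining 3 sets rest on a single region. In megabase B the share of regions over 0.5 in linear position was 16% in normal gland 1 and 18% in the other 3. In megabase E it was 30.56% in normal gland 2 and 29.17% in the other 3, and in megabase F it was 27.66% in normal gland 4 and 25.53% in the other 3.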

How the results depend on the processing

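The counts of dense regions lower and higher in carcinomas (130 and 18) and the dense minus other median difference (-0.22) were recomputed under each alternative. Loess gave 35, 44 and -0.0289, quantile normalization 74, 15 and -0.0829, linear position 30, 60 and -0.00634 (in its own unit), and normexp 120, 6 and -0.0682. Scan day 2 alone gave 93, 6 and -0.15, and scan day 3 alone 106, 5 and -0.27. Array weights gave 139 and 41, and an adjusted p under 0.01 gave 113 and 10. Probes above background in both channels moved the median difference to -0.17, and captured signal alone, added after the data were seen, to -0.15. Megabases of 35 or more runs gave 175, 32 and -0.17, those of 50 or more 59, 11 and -0.14, and a grid shifted by 500 kb 138, 28 and -0.17, all on other sets of regions. Leaving out each array in turn gave 116 to 134 lower, 10 to 29 higher and -0.26 to -0.17, with 10 higher without normal gland 1 and 29 without carcinoma 8. The replicate block gave 112 lower and 13 higher, and it rests on numbers 1 to 4, the only ones found in both groups. Deviations of same-numbered samples correlated at -0.29 to 0.34. So few correlations cannot show whether the numbers pair samples. The dense minus other difference was negative in all settings in which it was computed. Scan day or slide as a block, the value table, no filter on dim probes, probe medians, narrower or wider gaps between probes and the left-out megabases kept in moved no count by over 1.5 times. With normexp 4 named regions lost their call, with captured signal alone 3 and with the replicate block 3. Among the 17 named regions that passed between the groups only loess turned signs, in the 5 highest in normal glands, to 0.19, 0.20, 0.33, 0.27 and 0.30 in the order named. The 3 most variable regions, which did not pass, turned sign under several settings, and that on chromosome 1 from 78643486 passed after loess at 0.54 and with the replicate block at -1.05. Beyond the construction of each setting, the cause was not tested.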
